A study of Homo sapiens with 14 samples.

Results

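The 2 lentiviral hairpins used in this study to lower FOXO1 and FOXO3, shFOXO707 and shFOXO33, were compared with each other across 6 arrays of the 14 in the series. Each hairpin contributed 3 arrays, 1 without 4-hydroxytamoxifen (OHT) and 2 with OHT, and these arrays were chosen by their labels alone. All 6 came from U2OS ER-E2F1, an osteosarcoma cell line that stably carries the transcription factor E2F1 fused to a ligand-binding domain of the estrogen receptor, so that OHT switches the fusion on. Every hairpin array therefore had the E2F1 fusion and a virus directed against both FOXO1 and FOXO3, and the arrays differed in which hairpin the virus encoded and in whether OHT was given. The 8 scrambled arrays (4 without and 4 with OHT), infected with a virus encoding a scrambled sequence, were used to say which of the hairpins departed from them at the same treatment. They also entered the filter on low signals and the estimate of spread for the values at a single treatment and for the change with OHT, but not the fit that compared the hairpins across treatments. Infection was followed after 24 h by serum-free medium for 24 h and then by 6 h in serum-free medium with 20 nM OHT or without it, which is written below as "without OHT". Total RNA was converted to biotin-labelled cRNA and hybridised to an Affymetrix human array.

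FOXO1 and FOXO3 are forkhead transcription factors that enter the nucleus when growth factor signalling through PI3K and AKT is low, as in serum-free medium, and they then activate genes of cell cycle arrest, stress resistance, autophagy and apoptosis. E2F1 drives the genes of DNA replication and the cell cycle, and it can also raise apoptotic genes. A short hairpin RNA is processed by the small RNA pathway into a guide that lowers the transcripts it pairs with, and it can also lower transcripts other than its intended targets, which is why a knockdown is usually made with more than 1 hairpin. The comparison asks how alike the arrays of the hairpins were. The hairpin sequences were not used here.

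Each hairpin is 1 virus, and the labels do not say whether its arrays came from separate infections or cultures, so the p-values below measure only the spread between these arrays, which may be technical. The median signal was 141 and 143 on the hairpin arrays without OHT and from 118.8 to 120.1 on those with OHT. Over the tested genes, log2 signals of the 2 pairs of arrays with the same hairpin and treatment correlated at r = 0.993, and those of the 5 pairs with different hairpins at the same treatment at r from 0.956 to 0.958. Genes are not independent replicates in these values. For the ACTB control probe sets, the signal at the 3' end over that at the 5' end, a sign of RNA integrity, was 1.49, 1.63 and 1.60 on the shFOXO33 arrays and 1.64, 2.04 and 1.95 on the shFOXO707 arrays, and it reached 1.59 on the scrambled arrays without OHT and 1.74 on those with OHT. It was thus highest on the shFOXO707 arrays with OHT. The same ratio for GAPDH ran from 0.983 to 1.11 on the hairpin arrays, and the part of RNA integrity in the differences below was not tested.

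FOXO3 was lowered by both hairpins, and more by shFOXO33. Its signal was 138 without OHT and 290 and 325 with OHT on the shFOXO33 arrays, and 274 without OHT and 853 and 766 with OHT on the shFOXO707 arrays. The scrambled arrays had 449 ± 42.7 (SD, n = 4) without OHT and 1793 ± 45.2 (SD, n = 4) with OHT, so that all hairpin arrays lay below all scrambled arrays of their treatment. FOXO3 stood at 30.7% of the scrambled mean without OHT and 17.1% with OHT under shFOXO33, against 60.9% and 45.1% under shFOXO707 on this scale of linear signal. Taking treatment as a covariate, it was 1.21 ± 0.12 log2 units (SE, 3 arrays each) higher with shFOXO707, with an adjusted p of 2.0e-05 in limma. The hairpin values did not overlap at either treatment. A pair of further probe sets that match FOXO3 and its relative FOXO3B were 1.09 and 0.96 log2 units higher with shFOXO707, and a last one was below the filter on low signals.

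FOXO1 was below scrambled with both hairpins, and the difference between them did not pass the test. Its signal was 49.2 without OHT and 140 and 185 with OHT under shFOXO33, and 39.1 without OHT and 218 and 254 with OHT under shFOXO707. The scrambled arrays had 103 ± 8.45 (SD, n = 4) and 501 ± 32.7 (SD, n = 4). The hairpin arrays were all below these, with shFOXO707 the lower of the hairpins without OHT and the higher with OHT. The hairpin difference was 0.26 ± 0.19 log2 units (adjusted p = 0.30 in limma), and its change with OHT was 0.75 ± 0.25 (adjusted p = 0.17). With the OHT arrays alone it was 0.50, with an adjusted p of 0.037 in limma. The other FOXO1 probe set gave 0.57 (adjusted p = 0.12 in the limma fit of all probe sets). A p that misses the threshold does not show that the hairpins lowered FOXO1 alike. FOXO4, a relative not named as a target, was below the filter, with signals from 21.3 to 73.2 on the hairpin arrays, and no probe set of FOXO6 was tested. E2F1, whose probe sets cannot be assumed to separate the fusion from the native gene, differed by 0.20 ± 0.12 log2 units (adjusted p = 0.20 in limma). Its other probe set was 0.41 log2 units higher with shFOXO707, with signals of 160, 155 and 149 under shFOXO33 against 209, 216 and 207 under shFOXO707 (adjusted p = 0.038 in the limma fit of all probe sets).

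**Figure D1:**
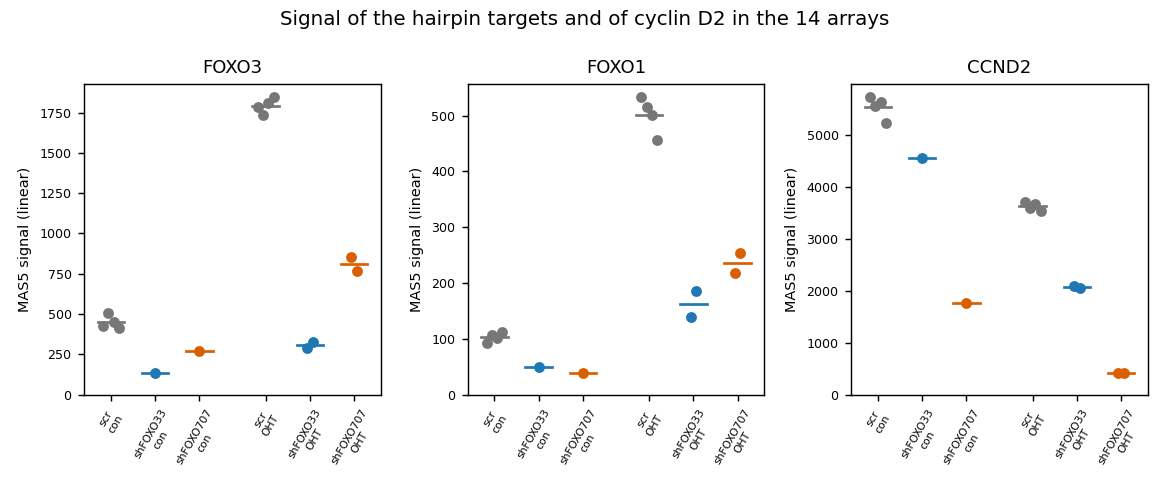
Linear array signal of FOXO3, FOXO1 and CCND2 (cyclin D2) on the 14 arrays, grouped by hairpin and treatment, with 1 point per array and a line at each group mean. FOXO3 lies between 290 and 325 with shFOXO33 and between 766 and 853 with shFOXO707 under OHT, below the scrambled arrays in both cases, while CCND2 is lowest with shFOXO707.

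The hairpins differed from each other over a large share of the measured genes. A gene was called when its Benjamini-Hochberg adjusted p in limma was under 0.05 over the 7720 genes tested. With treatment as a covariate, 3476 genes were called (45.0% of those tested), 1762 of them higher with shFOXO707 (22.8%) and 1714 lower (22.2%). The median difference over all genes was -0.01 log2 units, and the calls were near evenly split between directions. Most differences were small. The median size was 0.24 log2 units over all genes and 0.46 over called genes, against a median SE of 0.10. A called difference of at least 2-fold, or 1 log2 unit, was found for 203 genes higher (2.63% of those tested) and 136 lower (1.76%) with shFOXO707. For all 339 of these, both OHT arrays of one hairpin lay on the same side of both arrays of the other, and the arrays without OHT had the same order. Such an order was found for 3441 of the 3476 called genes (99.0%) and for 61.4% of all genes tested. The call and the size come from these same arrays and favour such an order, so it is no separate result.

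The differences seen without OHT and with OHT rest on separate arrays. With OHT, where each hairpin had 2 arrays, 1706 genes were called higher with shFOXO707 and 1655 lower (43.5% of those tested), at least 2-fold for 237 (3.07%) and 154 (1.99%). Without OHT, where each had 1 array and the spread was taken from the other groups, 1212 were called higher and 1088 lower (29.8%), at least 2-fold for 219 (2.84%) and 146 (1.89%). Those calls compare 1 array with 1 array and hold no measure of how arrays of that hairpin and treatment vary. The sign of the difference was the same at both treatments for 6058 of 7720 genes (78.5%), with r = 0.80 across genes. All 391 genes that were called and differed at least 2-fold with OHT had the same sign without OHT, and 360 of the 365 that were called and differed so without OHT had the same sign with OHT. These counts describe genes that share arrays, and are not tests.

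**Figure D2:**
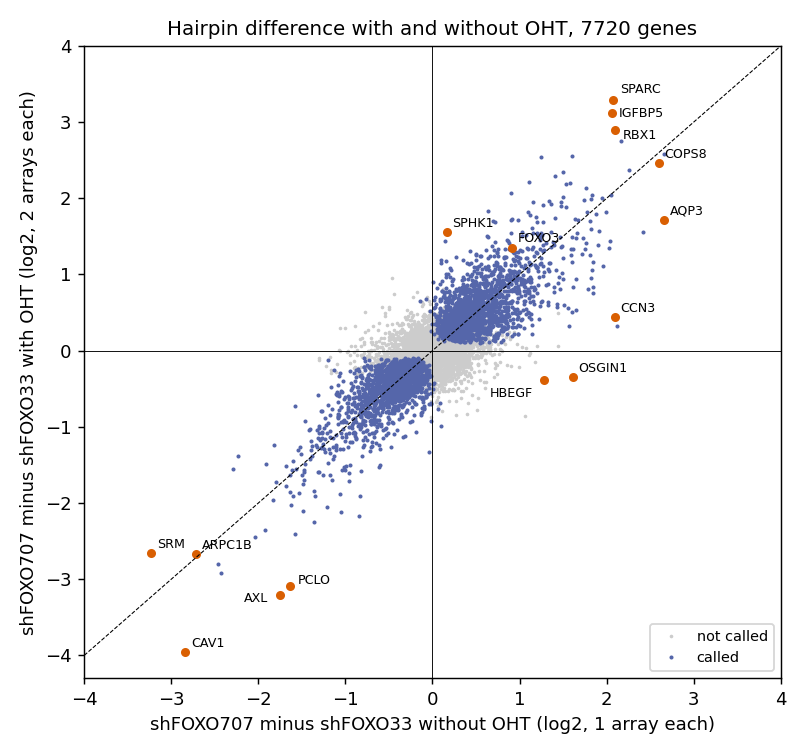
Hairpin difference of each tested gene (shFOXO707 minus shFOXO33, log2 units) without OHT on the horizontal axis and with OHT on the vertical axis; blue points were called across both treatments, grey points were not, and orange points are named genes. Points follow the dashed line of equal difference at r = 0.80, with OSGIN1, HBEGF, CCN3 and SPHK1 among those away from it.

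Each hairpin was next set against the scrambled arrays of the same treatment, with the treatments weighted as in the comparison of the hairpins. These 2 departures share the scrambled arrays and are given side by side. shFOXO707 departed from scrambled for 3691 genes (47.8% of those tested), 2156 above (27.9%) and 1535 below (19.9%), and shFOXO33 for 4210 (54.5%), 2384 above (30.9%) and 1826 below (23.7%). The lean upward depended on the scaling: with each array centred on its median, 1864 were above and 1734 below for shFOXO707, and 2096 and 1983 for shFOXO33. Among the 3476 genes that differed between the hairpins, only shFOXO33 departed for 1205 (34.7%), only shFOXO707 for 859 (24.7%), both to opposite sides for 791 (22.8%) and both to the same side for 13.4%. Neither departure was called for 155 (4.46%). Over all genes tested the shares, in the same order, were 24.4%, 17.6%, 10.2%, 19.9% and 27.8%. The departures differ by the hairpin difference itself, so picking genes for that difference favours departures to opposite sides.

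For most of the largest differences the hairpin farther from scrambled lay below it. Of the 339 genes with a called difference of at least 2-fold, shFOXO33 was the hairpin farther from scrambled for 188, and below scrambled for 165 of these (87.8%). shFOXO707 was the farther for 151, and below scrambled for 113 of them (74.8%). The median departure of the farther hairpin was 1.05 or 1.06 log2 units in size, against 0.31 or 0.30 for the nearer. That gap follows in part from the definition, since the farther hairpin is the one with the larger departure. For the whole set of called genes the farther hairpin was below scrambled for 51.9% (shFOXO33) and 50.9% (shFOXO707). Both departures were called for 212 of the 339 on opposite sides. Counted from the other end, 144 genes were called at least 2-fold below scrambled with shFOXO33 (1.87% of those tested) and 108 with shFOXO707 (1.40%), and 10 genes were in both sets, which is 6.94% of the first and 9.26% of the second. At least 2-fold above scrambled were 49 genes with shFOXO33 (0.635%) and 56 with shFOXO707 (0.725%), and 20 genes were in both, 40.8% and 35.7% of them.

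**Figure D3:**
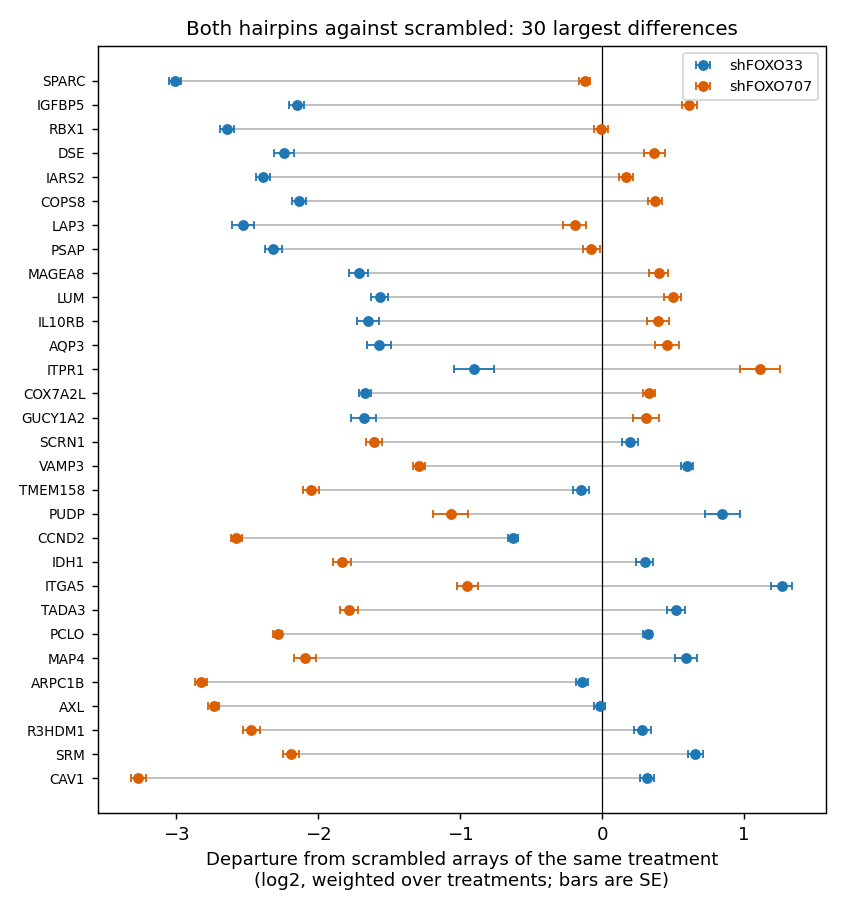
Departure from the scrambled arrays of the same treatment (log2 units, treatments weighted 1 to 2, bars are SE) for shFOXO33 in blue and shFOXO707 in orange, for the 15 largest hairpin differences each way. In the upper 15 genes shFOXO33 lies from -3.01 to -0.90 below the scrambled level, and in the lower 15 shFOXO707 lies from -3.27 to -0.95 below it, with the other hairpin nearer to 0 for all but ITPR1 and ITGA5.

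In the 15 genes that were most strongly higher with shFOXO707, shFOXO33 was below the scrambled level in all 15. The largest difference was in SPARC, a secreted glycoprotein of bone and other connective tissue that binds collagen. Its signal was 2006 without OHT and 777 and 832 with OHT under shFOXO33, and 8508, 8459 and 7608 under shFOXO707. The scrambled arrays ran from 8872 to 9433 without OHT and from 8321 to 9085 with OHT. Both hairpins were called below scrambled, with departures of -3.01 log2 units for shFOXO33 and -0.12 for shFOXO707. The difference was 2.89 ± 0.19 log2 units (adjusted p = 1.8e-06 in limma), and a further SPARC probe set gave 2.03. LUM, the matrix proteoglycan lumican, had 1205, 586 and 664 under shFOXO33 against 3433, 3014 and 3488 under shFOXO707, a difference of 2.07 ± 0.15 log2 units (adjusted p = 2.7e-06 in limma). DSE, an epimerase that makes dermatan sulfate, had 179, 120 and 146 against 1218, 860 and 889. For LUM and DSE, as for SPARC, all shFOXO33 arrays lay below all scrambled arrays.

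IGFBP5, which binds insulin-like growth factors outside the cell, had 478, 165 and 184 under shFOXO33 and 2043, 1577 and 1696 under shFOXO707, a difference of 2.77 ± 0.18 log2 units (adjusted p = 1.4e-06 in limma). Here the scrambled arrays of both treatments ran from 956 to 1582, above all shFOXO33 arrays, and the shFOXO707 array at 1577 fell within that range. Both departures were called, 0.61 above for shFOXO707 and -2.15 for shFOXO33. All 4 other IGFBP5 probe sets above the filter were also higher with shFOXO707, by 0.75 to 1.98 log2 units. RBX1 and COPS8 belong to linked machines: RBX1 is the RING subunit of cullin ubiquitin ligases, and COPS8 is a subunit of the COP9 signalosome that removes NEDD8 from cullins. RBX1 had 656, 342 and 392 under shFOXO33 and 2861, 2804 and 2878 under shFOXO707, the latter at the scrambled level (a departure of -0.01 log2 units). COPS8 had 464, 498 and 469 against 2887, 2700 and 2778, and its difference of 2.51 ± 0.07 log2 units hardly depended on OHT. The 3 other COPS8 probe sets gave 1.24 to 1.95. Neither gene's arrays overlapped between the hairpins. The choice of genes for the largest differences required no overlap with OHT and the same sign without it. The lack of overlap is therefore no separate result, and 61.4% of all genes tested had such an order.

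The rest of these 15 genes spanned organelles and membrane proteins. PSAP, the precursor of the saposins that help degrade sphingolipids in the lysosome, had 2646, 1190 and 1038 under shFOXO33 against 8070, 7310 and 5998 under shFOXO707. IARS2, the mitochondrial isoleucyl-tRNA synthetase, had 517, 214 and 196 against 2371, 1445 and 1497, and COX7A2L, an assembly factor of respiratory supercomplexes, had 1626, 638 and 714 against 4354, 3541 and 3234. LAP3, a leucine aminopeptidase, had 314, 231 and 205 against 1563, 1173 and 1221. In each of these the shFOXO33 arrays stood apart, and the shFOXO707 arrays were within 0.33 log2 units of scrambled on average. IL10RB, a receptor chain shared by cytokines of the interleukin-10 family, AQP3, a channel for water and glycerol, GUCY1A2, a subunit of soluble guanylate cyclase, and MAGEA8, a cancer-testis antigen, were 1.99 to 2.11 log2 units higher with shFOXO707. ITPR1, the inositol trisphosphate receptor that releases calcium from the endoplasmic reticulum, differed in its pattern: shFOXO707 was 1.11 log2 units above scrambled and shFOXO33 at -0.90 on its main probe set, for a difference of 2.02. Of its other probe sets above the filter, one gave 1.64 and the other 0.70 (adjusted p = 0.064 in limma).

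The 15 genes most strongly lower with shFOXO707 were mirrored in this respect, with shFOXO707 below scrambled in all 15. CAV1, caveolin-1, the coat protein of caveolae, gave the largest difference of any of the 30 named genes ranked by size. Its signal was 4093 without OHT and 3266 and 3363 with OHT under shFOXO33, and 559, 206 and 191 under shFOXO707. The scrambled arrays ran from 3028 to 3717 without OHT and from 2565 to 2630 with OHT, below the shFOXO33 arrays and far above those of shFOXO707. The difference was -3.58 ± 0.18 log2 units (adjusted p = 3.1e-07 in limma), and a further CAV1 probe set gave -3.91. ARPC1B, a subunit of the Arp2/3 complex that branches actin filaments, had 2009, 1859 and 1904 under shFOXO33 and 293, 272 and 290 under shFOXO707, with a difference of -2.69 ± 0.07 log2 units (adjusted p = 1.1e-08 in limma). MAP4, which binds microtubules, had 1923, 1615 and 1642 against 336, 218 and 223, and 5 further MAP4 probe sets differed by -1.98 to -3.37 log2 units. ITGA5, the alpha chain of the fibronectin receptor, had 853, 713 and 673 against 213, 132 and 114. For ITGA5 the scrambled arrays, from 216 to 482, stood between the hairpins, with departures of 1.26 for shFOXO33 and -0.95 for shFOXO707.

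Cell surface and vesicle genes in this direction included AXL, a receptor tyrosine kinase bound by GAS6, VAMP3, a vesicle fusion protein of recycling endosomes, and PCLO, a scaffold protein of the presynaptic active zone. AXL had 6419, 4846 and 4724 under shFOXO33 and 1901, 520 and 490 under shFOXO707, and the shFOXO33 arrays were at the scrambled level. Its difference of -2.72 ± 0.22 log2 units (adjusted p = 6.4e-06 in limma) was not shared by its other probe set above the filter, which gave -0.21 (adjusted p = 0.21). VAMP3 had 2594, 2131 and 2119 against 833, 511 and 507, and its other probe sets gave -1.61 and -1.63. PCLO had 10409, 6177 and 6481 against 3340, 735 and 723. All shFOXO707 arrays of these 3 genes were lower than all scrambled arrays of the same treatment.

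Enzymes were the other group here. SRM, spermidine synthase, had 2273, 2429 and 2447 under shFOXO33 and 228, 411 and 338 under shFOXO707, with scrambled arrays between the hairpins at 1118 to 1735. Its difference was -2.85 ± 0.12 log2 units (adjusted p = 1.3e-07 in limma), with departures of 0.66 for shFOXO33 and -2.19 for shFOXO707. IDH1, the cytosolic isocitrate dehydrogenase that makes NADPH, had 3327, 1826 and 1594 against 1102, 332 and 287. PUDP, a phosphatase of pseudouridine monophosphate, had 532, 313 and 289 against 138, 86.8 and 48.5. R3HDM1, TADA3 (an adaptor of histone acetyltransferase complexes), TMEM158 and SCRN1 differed by -2.75, -2.31, -1.90 and -1.80 log2 units. These 7 genes were all called, and their hairpin values did not overlap at either treatment, both of which their selection required.

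CCND2, cyclin D2, which partners CDK4 and CDK6 in G1, was below scrambled with both hairpins. Its signal was 4564 without OHT and 2101 and 2057 with OHT under shFOXO33, and 1772, 425 and 425 under shFOXO707, against scrambled means of 5534 and 3633. The hairpins thus stood in the same order at both treatments, with shFOXO707 the lower, as the selection of CCND2 among the largest differences required. The difference on this probe set was -1.95 ± 0.14 log2 units (adjusted p = 3.4e-06 in limma). Another probe set gave -0.83 (adjusted p = 0.0044) but the last one, also above the filter, gave 0.30 in the other direction (adjusted p = 0.0092 in limma), so the direction for this gene depends on the probe set. Over all named genes, 90 further probe sets of 56 genes passed the filter, and 85 of them had the sign of the probe set used.

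The hairpin difference changed with OHT for 172 genes (2.23% of those tested), 81 of them (1.05%) towards higher signal with shFOXO707 when OHT was present and 91 (1.18%) towards lower. The difference was larger with OHT for 83 of them and larger without OHT for 89, and for 41 it had opposite signs at the treatments. Of the 172, 121 were also called in the comparison across treatments. Without OHT each hairpin had 1 array, so a value there has no replicate of its own. When the first shFOXO33 array with OHT was left out, 97 genes were called. A variance prior with no trend gave 108.

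SPHK1, which makes the lipid mediator sphingosine 1-phosphate, showed the largest change upward. It had 134 and 152 without OHT, and with OHT 744 and 732 under shFOXO33 against 2160 and 2235 under shFOXO707. The hairpins were close without OHT, at the level of the scrambled arrays, and with OHT only shFOXO33 was far below the scrambled range of 2479 to 2632. Its difference was 0.16 log2 units without OHT and 1.55 with OHT, a change of 1.39 ± 0.24 (adjusted p = 0.0063 in limma). EGR4, a zinc finger factor of the immediate early class, had 51.2 and 58.3 without OHT, and 72.2 and 98.5 (shFOXO33) against 237 and 275 (shFOXO707) with OHT. MAGEA8, SPARC and CRYZ, a quinone reductase also known as zeta-crystallin, differed at both treatments and more with OHT, by 1.30, 1.22 and 1.19 log2 units.

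In the other direction the largest change was in OSGIN1, an oxidative stress response gene. It had 148 under shFOXO33 and 486 under shFOXO707 without OHT, and 107 and 137 against 108 and 77.5 with OHT. Without OHT the single shFOXO707 array thus lay far above the scrambled arrays, which ran from 155 to 192, and the shFOXO33 array just below them. The change was -1.96 ± 0.31 (adjusted p = 0.0026 in limma). HBEGF, a growth factor that binds the EGF receptor, crossed over: it had 170 (shFOXO33) and 434 (shFOXO707) without OHT, and 680 and 702 against 492.8 and 556 with OHT, a change of -1.67 ± 0.16 (adjusted p = 4.7e-05 in limma). MCF2L had 72.4 and 367 without OHT and from 59.3 to 106 on all hairpin arrays with OHT. CCN3, a matricellular protein, had 240 and 1077 without OHT, and 233 and 257 against 332 and 344 with OHT. AXL was lower with shFOXO707 at both treatments, with differences of -1.75 log2 units without OHT and -3.20 with OHT.

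**Figure D4:**
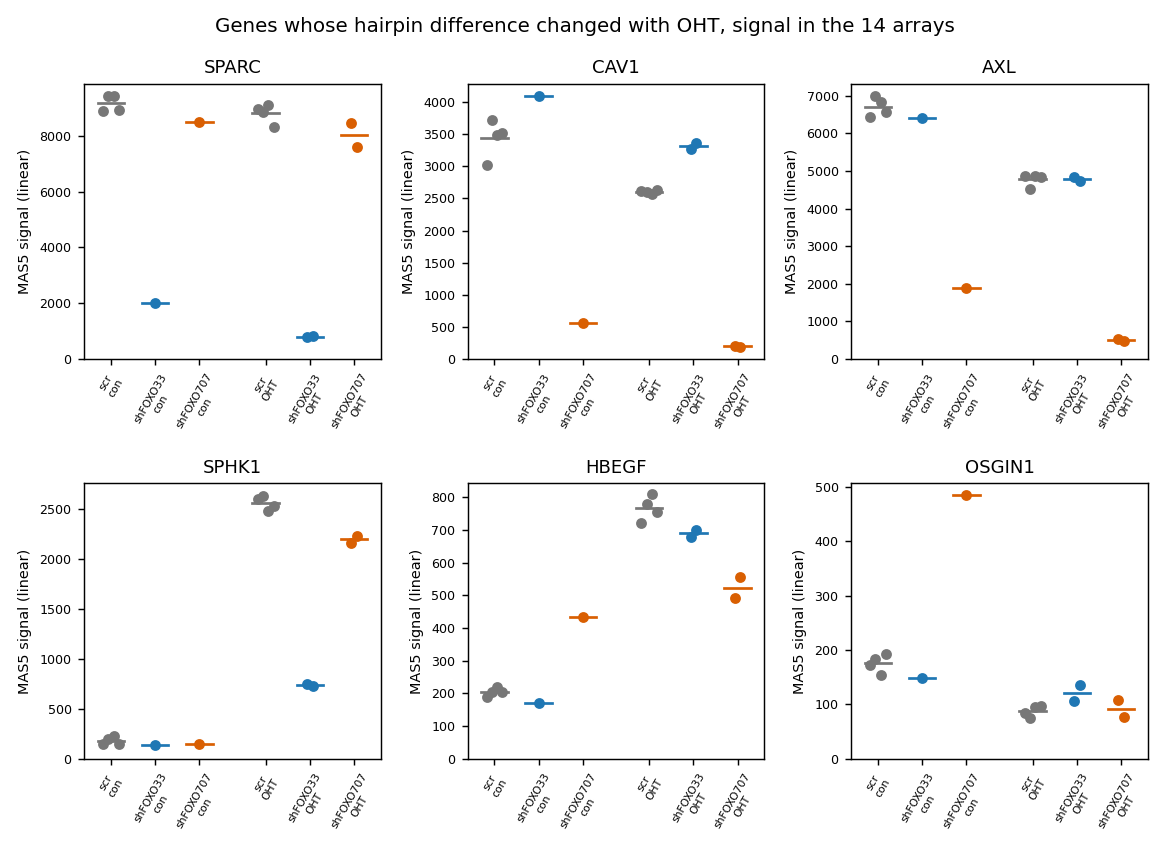
Linear array signal of 6 genes whose hairpin difference changed with OHT, on the 14 arrays grouped by hairpin and treatment, with 1 point per array and a line at each group mean. SPARC, CAV1 and AXL differ at both treatments, SPHK1 (744 and 732 against 2160 and 2235) differs with OHT, and for OSGIN1 the shFOXO707 array without OHT stands alone at 486.

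The gene lists were set against the background of all tested genes, of which 22.8% were called higher and 22.2% lower with shFOXO707 and whose median difference was -0.01 log2 units. Against scrambled, 27.9% of all genes were called above and 19.9% below with shFOXO707, and 30.9% and 23.7% with shFOXO33. The lists are described by counts alone, and none was tested as a set. When probe sets that can match several transcripts were left out, the sign of the median turned for the lists of PI3K signalling (-0.02), autophagy (-0.14), extracellular matrix (-0.07), the unfolded protein response (-0.14), interferon (0.03), NF-kB (0.14), immediate early genes (0.02), Polycomb (0.02) and epithelial (0.76) and blood cell markers (0.19). The epithelial value then rested on 1 gene and the blood cell value on 2 genes. Among genes described as FOXO targets, 28 of 41 were measured above the filter, and 6 were called higher and 5 lower (39.3%), with a median of -0.05. Against scrambled arrays, 16 of the 28 were called lower and 4 higher with shFOXO707, and 18 lower and 3 higher with shFOXO33. Each hairpin taken alone thus had more members called below scrambled than above it, while the difference between the hairpins went either way. TXNRD1, thioredoxin reductase, was 1.13 log2 units higher with shFOXO707, at 1234, 456 and 567 under shFOXO33 and 2823, 1157 and 1062 under shFOXO707. CCND1, cyclin D1, was 0.86 log2 units higher, at 1087, 904 and 979 against 2403, 1547 and 1581. These genes were below scrambled in both hairpins, and further with shFOXO33, as was PIK3IP1, an inhibitor of PI3K (0.86). CAT, catalase, and BNIP3, a mitophagy receptor, were 0.90 and 0.84 higher, with the hairpins on opposite sides of scrambled. MAP1LC3B, the autophagosome protein LC3B, was lower with shFOXO707 (1594, 1596 and 1577 against 1071, 757 and 765, a difference of -0.88), and so were GADD45B, GADD45A and the CDK inhibitor CDKN1B, at -0.62, -0.46 and -0.33. The apoptosis gene BCL2L11 (BIM) had departures of -0.39 and -0.41 log2 units with shFOXO707 and shFOXO33, and the hairpins differed by 0.02 ± 0.10.

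The forkhead core motif GTAAACA was searched on both strands in the 250 bases before the start site of RefSeq promoters of GRCh38.p14. It was found in 2.98% of all 27305 promoters, in 1.82% of the 6440 tested genes with a promoter, and in 2 of 23 FOXO target genes with one, BCL2L11 and TRIB2. None of the 13 matched genes among the 15 most strongly higher held it, and 1 of the 13 among the 15 most strongly lower did, PUDP. The stretches around the match in BCL2L11, whose difference between the hairpins was 0.02, and in PUDP, whose difference was -1.91, are shown so that a gene with little difference and a gene with a large one can be set side by side. The capitals mark the motif, which begins 223 bases before the start site in BCL2L11 (chr2:111120665-111120724, plus strand) and 214 bases before it in PUDP (chrX:7148334-7148393, minus strand), both given 5′ to 3′ along the gene.
BCL2L11: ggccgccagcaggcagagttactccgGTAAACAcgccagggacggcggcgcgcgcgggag
PUDP: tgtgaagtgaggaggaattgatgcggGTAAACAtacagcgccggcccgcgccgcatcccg
A match is a description of letters and does not show that a factor binds there.

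Replication-dependent histones, which package newly made DNA, were higher with shFOXO707 for all 8 members that passed the filter of 33 listed and 23 on the array, against 22.8% of all genes. Their median difference was 0.55 log2 units. H2BC21 had 287 without OHT and 125 and 119 with OHT under shFOXO33, and 999, 524 and 530 under shFOXO707, and the scrambled arrays lay between, at 557 to 693 and 229 to 271. Its difference was 1.90 ± 0.10 log2 units (adjusted p = 4.2e-07 in limma). H2AC6 had 221, 61.5 and 60.2 against 584, 297 and 273, a difference of 1.76 ± 0.15 (adjusted p = 7.6e-06), and H2BC5, H2BC9, H1-2, H4C8, H2BC12 and H2BC6 were 0.88 to 0.39 higher. shFOXO33 was called below scrambled for 6 of the 8 and shFOXO707 above for 5. Histone genes are near-identical copies of one another, so a probe set can take up signal from more than its named gene, and only 4 members had a probe set left, 2 of them called, when cross-matching probe sets were removed. Without the filter on low signals 7 of the 23 on the array were called higher and 0 lower, with a median of 0.33, and the median departure of shFOXO33 was -0.04.

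CCAAT, the box bound by the trimeric factor NF-Y, was found on either strand in the same 250 bases of 7 of these 8 histone promoters, against 9021 of all 27305 promoters and 36.0% of those of tested genes. The last 120 bases before the start site are shown for the pair with the largest differences, with each CCAAT or its reverse complement ATTGG in capitals, 5′ to 3′ along the gene, from chr1:149886683-149886802 on the minus strand (H2BC21) and chr6:26124052-26124171 on the plus strand (H2AC6).
H2BC21: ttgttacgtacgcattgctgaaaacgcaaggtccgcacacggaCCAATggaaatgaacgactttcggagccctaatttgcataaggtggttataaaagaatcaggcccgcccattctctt
H2AC6: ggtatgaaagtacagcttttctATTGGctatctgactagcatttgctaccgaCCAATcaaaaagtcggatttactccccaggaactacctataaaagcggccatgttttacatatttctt

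E2F targets of DNA replication moved the other way. Of 56 measured members, 28 were called lower and 5 higher with shFOXO707, with a median of -0.22 log2 units. For 21 of the 33 called members only shFOXO33 departed from scrambled, and shFOXO33 was above scrambled for 30 of the 56 and below for 8, whereas shFOXO707 was above for 10 and below for 14. RFC3, a subunit of the clamp loader, had 1449, 2363 and 2602 under shFOXO33 and 503, 750 and 828 under shFOXO707, a difference of -1.59 ± 0.07 (adjusted p = 2.2e-07 in limma). POLA2, a subunit of the polymerase alpha primase complex, differed by -1.26. MCM5, part of the replicative helicase, had 2341, 1588 and 1668 against 1173, 903 and 926, with shFOXO707 at the scrambled level. GINS3, ORC1, MCM7, RAD51AP1 and TK1 differed by -0.91 to -0.53. CCNE1, cyclin E1, went against the list: it was 0.72 ± 0.06 higher with shFOXO707, at 541, 5046 and 5258 under shFOXO33 and 979, 8463 and 7822 under shFOXO707. POLD3, RFC5, ASF1B and TYMS were 0.57 to 0.31 higher.

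Genes of mitosis and G2/M followed the replication genes, with 20 of 45 called lower and 6 higher and a median of -0.14. Most differences were modest: BIRC5 (survivin), TPX2, which loads AURKA onto the spindle, CKS1B, the factor FOXM1 and AURKA differed by -0.64 to -0.51 log2 units. KIF4A, a kinesin of chromosome condensation, and CDC25B, a phosphatase that activates CDK1, were higher instead, at 561, 890 and 913 against 1404, 1638 and 1657 for KIF4A, a difference of 1.01, and by 0.95 for CDC25B. Both were below scrambled with shFOXO33. Of 16 D and E cyclins, their kinases and CDK inhibitors, 5 were called higher and 3 lower (median 0.08). RBL1, the pocket protein p107, was 1.09 ± 0.13 higher, CDC25A 0.90, CDK2 0.62, while CDK6 was lower (-0.64). Of 11 E2F, DP and RB family members, 3 were called each way (median -0.05). E2F8 and the E2F partner TFDP1 were lower, at -0.71 and -0.46.

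Of 20 measured apoptosis genes described as E2F1 targets, 5 were called higher with shFOXO707 and 1 lower (median 0.06). MAP3K5, the stress kinase ASK1, had 185, 2160 and 1939 under shFOXO33 and 423, 3983 and 4079 under shFOXO707, a difference of 1.02 ± 0.07 (adjusted p = 2.3e-06 in limma). APAF1, the scaffold of the apoptosome, was 0.92 higher on its main probe set and 0.27 on another (adjusted p = 0.49 in limma), and MCL1, which opposes apoptosis, was 0.87 higher, while the protease gene CASP9 was lower (-0.57). Of 21 p53 targets 4 were higher and 6 lower (median -0.07). PPM1D, a phosphatase that restrains p53, had 2588, 6344 and 6139 against 1619, 3397 and 3430, a difference of -0.80 ± 0.06. BTG1, which opposes proliferation, was 0.83 higher. For 14 of the 21 p53 targets shFOXO707 was called below scrambled, and for 12 shFOXO33 was.

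Matrix, adhesion and cytoskeleton genes held several of the largest differences. Of 31 extracellular matrix genes 12 were called higher with shFOXO707 and 6 lower (median 0.06). COL5A2, a fibrillar collagen chain, had 1208, 610 and 622 against 2489, 1761 and 1795, a difference of 1.35 ± 0.09, and the fibrillin FBN2 was lower (-1.29), although its other probe set gave 0.02 (adjusted p = 0.96 in limma). Of 22 integrins, cadherins, semaphorins and ephrins 6 were higher and 3 lower (median 0.01). ITGB3, the beta chain of the vitronectin receptor, was 1.31 higher on a dim probe set, with signals from 42.6 to 167, and -0.13 on another (adjusted p = 0.76 in limma). Of 32 genes of the actin cytoskeleton and caveolae 16 were lower and 5 higher (median -0.20), and 8 of the 21 called members departed from scrambled to the same side in both hairpins. CNN2, a calponin, was lower (-1.21), and MSN, moesin, which links actin to the membrane, had 5074, 5717 and 5713 against 2691, 2949 and 2933. MYH9, a non-muscle myosin heavy chain, was 0.85 higher. Of 22 YAP and TGF-beta targets 8 were lower and 5 higher (median -0.11). TGFBR2, the type II receptor for TGF-beta, had 3238, 856 and 885 against 1449, 260 and 257 (-1.51 ± 0.11, adjusted p = 2.6e-06 in limma), and here shFOXO33 lay 1.34 above scrambled.

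Dynein and dynactin genes, the motor that carries cargo towards the minus ends of microtubules, had 7 higher and 3 lower of 19 (median 0.13). Both hairpins were called above scrambled for more than 10 of the 19, shFOXO707 for 13 and shFOXO33 for 11. DYNLRB1, a light chain, was 3.04 above scrambled with shFOXO707 and 2.74 with shFOXO33, so the hairpins differed by 0.29 of that shift. NF2 (merlin), of the actin list, was likewise 1.85 and 2.67 above, a difference of -0.82. For these genes, chosen here after their values were seen, the departure common to the hairpins was larger than the difference between them.

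Ribosomal protein genes were shifted slightly and together. Of 37 measured, 25 were called lower with shFOXO707 and 0 higher, with a median of -0.15 log2 units, but after quantile normalization 6 were lower and 1 higher with a median of -0.05, and with a variance prior that has no trend 5 were lower. For 22 of the 25 only shFOXO33 departed from scrambled, upward. This departure also depended on the scaling: shFOXO33 was called above scrambled for 32 of the 37, and for 13 after quantile normalization. RPL38 had 12596, 12130 and 11998 under shFOXO33 and 9419, 9259 and 8548 under shFOXO707, a difference of -0.43 ± 0.05. Most probe sets of this list match several transcripts, and 13 members had another kind of probe set, of which 8 were called lower and 1 higher.

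Of 25 genes of the unfolded protein and integrated stress response, 8 were called each way (median 0.15), and without cross-matching probe sets 4 of 16 were higher and 7 lower. TRIB3, DDIT3 (CHOP), DDIT4 and ATF4, of the ATF4 branch, were lower with shFOXO707, at -1.58, -0.85, -0.83 and -0.56, while the endoplasmic reticulum chaperones HSP90B1 and HSPA5 were 0.91 and 0.29 higher. HSP90B1 had 3117, 2348 and 2307 against 5664, 4538 and 4417, and its other probe set gave 0.22 (adjusted p = 0.14 in limma). ASNS and SLC7A11, also known as ATF4 targets, were higher by 0.56 and 0.48, the latter with another probe set at 0.17 (adjusted p = 0.43 in limma). ATF6, a sensor of unfolded proteins, was lower (-1.13).

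Metabolic genes went both ways. Of 29 genes of glycolysis and hypoxia 12 were called higher and 7 lower (median 0.02), with the glucose transporter SLC2A3 1.39 higher (330, 68.6 and 79.4 against 1221, 164 and 210) and the enzymes TPI1 0.91 higher and ALDOA lower (-0.60). Of 31 genes of oxidative phosphorylation 6 were higher and 10 lower (median -0.09), and UQCRB, UQCRC2 and ATP5MC3, parts of complex III and of ATP synthase, differed by 0.75, -0.85 and 0.71. Of 23 genes of cholesterol and fatty acid synthesis 4 were higher and 3 lower (median 0.09). Of 29 genes of autophagy and lysosome 4 were higher and 10 lower, while the list's median was 0.05. The cysteine protease CTSL, cathepsin L, had 1127, 688 and 693 against 3300, 2610 and 2566, a difference of 1.77 ± 0.08 (adjusted p = 1.6e-07 in limma), and BECN1 (beclin 1), which starts autophagosome formation, had 688, 348 and 336 against 1270, 953 and 967. Of 16 amino acid and other solute carriers 4 were higher and 3 lower (median 0.04), led by SFXN1, a mitochondrial serine carrier, at 235, 157 and 197 against 650, 637 and 612. In CTSL, BECN1 and SFXN1 it was shFOXO33 that lay below scrambled.

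Of 28 genes of PI3K, insulin and growth factor signalling, the pathway upstream of FOXO, 9 were called higher with shFOXO707 and 4 lower (median 0.09). PHLPP2, a phosphatase of AKT, had 267, 589 and 592 under shFOXO33 and 1021, 2093 and 2080 under shFOXO707, against scrambled arrays of 768 to 881 and 1569 to 1775, a difference of 1.82 ± 0.07 (adjusted p = 8.3e-08 in limma). The receptor MET had 325, 1485 and 1883 against 1029, 3940 and 4579, with scrambled arrays between, although another MET probe set gave 0.48 (adjusted p = 0.21 in limma). PDGFRA was 0.97 higher on its main probe set and 0.04 on another (adjusted p = 0.92 in limma), and IRS1 was 0.84 higher. GSK3B, EIF4EBP1 and IGF1R differed by -0.78, -0.66 and -0.54. In the WNT pathway 6 of 19 were higher and 5 lower (median 0.09), with the receptor FZD6 lower (-1.39) and the secreted antagonist SFRP1 higher (1.004). Of 20 Notch and BMP genes 6 were higher and 2 lower (median 0.08), with HES1, ID1 and SMAD1 0.47, 0.43 and 0.43 higher. Of 26 immediate early and serum response genes 6 were called each way (median -0.01), and the AP-1 members FOSL1 and JUN differed by 0.72 and -0.43.

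Of 15 high mobility group and chromatin architecture genes 3 were higher and 6 lower with shFOXO707 (median -0.10). HMGA2, an AT-hook protein and a well-known target of let-7, had 1277, 1171 and 1113 under shFOXO33 and 526.2, 366 and 350 under shFOXO707. The scrambled arrays of both treatments ran from 195 to 358. All shFOXO33 arrays were far above that range, and the shFOXO707 array at 350 fell within it (difference -1.51 ± 0.09, adjusted p = 1.1e-06 in limma). HMGN3 was 1.02 higher and the cohesin subunit RAD21 lower (-0.91). Of 21 Polycomb and chromatin modifiers 3 were higher and 10 lower (median -0.13), among them the remodelling ATPase SMARCA4 (-0.81) and the reader CBX7 (0.92).

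The processing of small RNAs and the response to double-stranded RNA bear on any hairpin. Of 13 measured small RNA pathway genes 2 were higher and 6 lower (median -0.19): TSN (translin), of a complex that removes the cleaved passenger strand, had 3269, 2795 and 3107 against 1505, 1213 and 1273, and the Argonautes AGO1 and AGO3 differed by 0.45 and -0.58. Of 13 genes of double-stranded RNA sensing 1 was higher and 4 lower (median -0.16), with the editing enzyme ADAR lower (-1.01). Of 16 interferon response genes 2 were higher and 4 lower (median -0.14), and 22 of the 38 listed were not on the array or below the filter. OAS3 had 161, 206 and 190 under shFOXO33, 71.2, 134 and 110 under shFOXO707 and from 203 to 289 on the scrambled arrays of both treatments. The shFOXO707 arrays were all below that range, and the shFOXO33 array at 206 fell within it. Of 16 genes of MHC class I presentation 3 were higher and 4 lower (median -0.07), and the chaperone CANX was 0.69 higher. Of 14 NF-kB, cytokine and chemokine genes 0 were higher and 1, TNFAIP3, lower (-0.58 ± 0.13, adjusted p = 0.0056 in limma), a share of 7.14%.

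Markers of cell types were summed over the linear signals of their genes on the array. Of 13 osteoblast and chondrocyte markers, the lineage of an osteosarcoma, the sum was 15755 without OHT and 10980 and 11208 with OHT under shFOXO33, against 24197, 18093 and 19200 under shFOXO707 and 19926 to 23999 on the scrambled arrays. SPARC made up most of that gap: without it the sum of the other 12 was 13749, 10203 and 10377 under shFOXO33 against 15689, 10485 and 10741 under shFOXO707. Of the others, ALPL, alkaline phosphatase, was lower with shFOXO707 (274, 225 and 241 against 106, 92.8 and 79.6, a difference of -1.27) and SPP1, osteopontin, 0.80 higher. In all, 4 of the 9 above the filter were called higher and 1 lower. Of 12 epithelial markers 4 were above the filter, 1 called higher and 2 lower, and the sum was lower with shFOXO707 (5102, and 3838 and 3915 with OHT) than with shFOXO33 (7555, and 6170 and 6540), with the keratins KRT18 and KRT8 at differences of -0.98 and -0.30. The 10 blood cell markers summed to 463 to 641 on all 14 arrays and 0 of the 2 above the filter were called, with 0 at an unadjusted p under 0.05 in limma. Of 11 neural markers 4 were above the filter and 2 called higher, with SNAP25, a vesicle fusion protein, at 174, 123 and 178 against 615, 443 and 436. RNA of bulk cultures was measured, so fewer cells of a kind and less RNA per cell cannot be told apart, and the part of cell makeup in the differences was not tested.

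**Figure D5:**
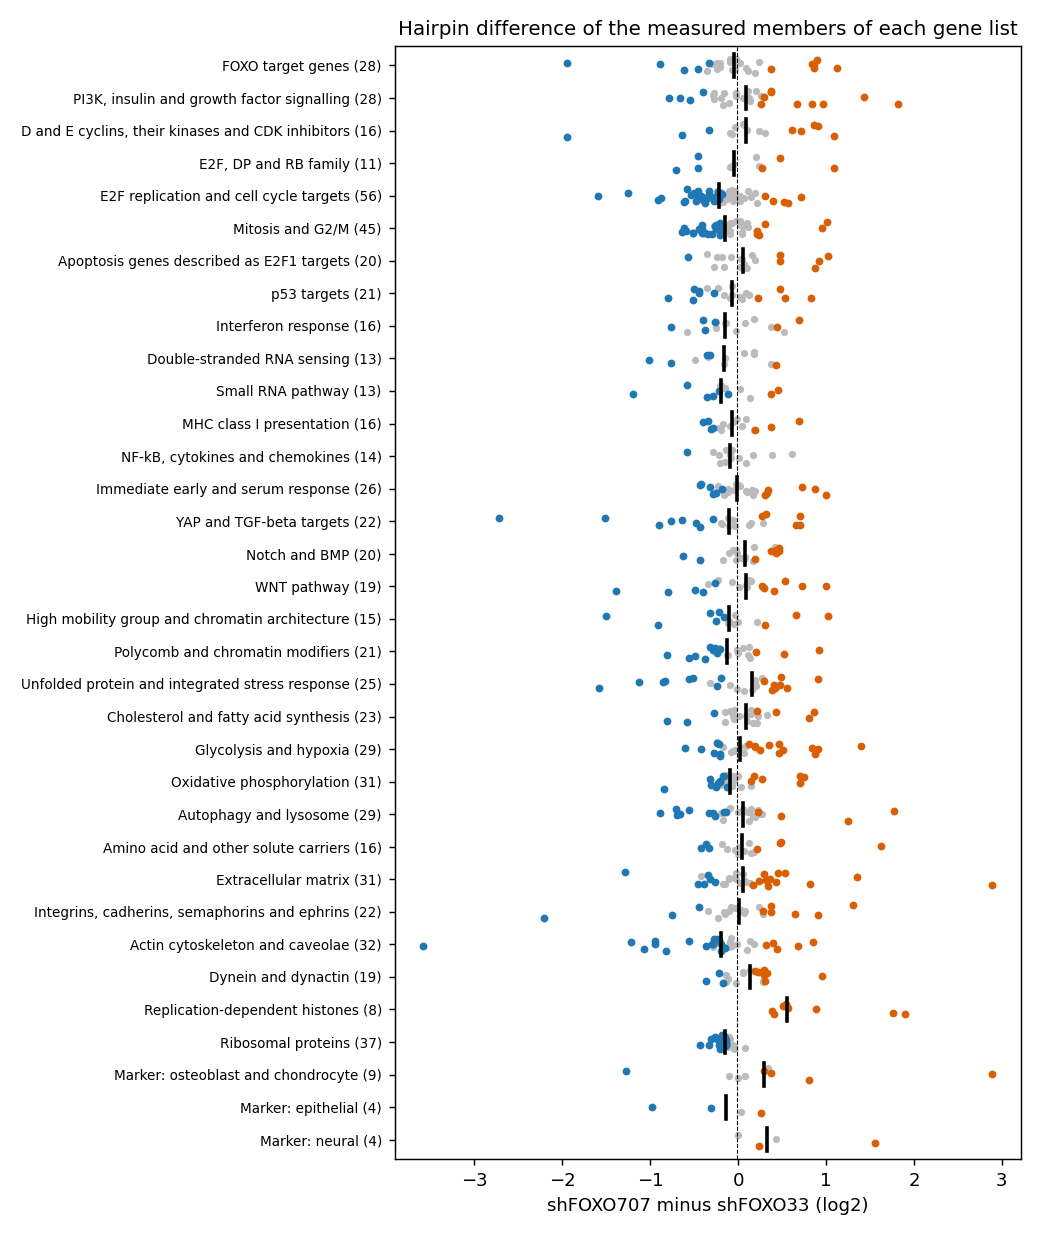
Hairpin difference (shFOXO707 minus shFOXO33, log2 units) of each measured member of the gene lists with at least 4 members tested, with the number tested in brackets; orange points were called higher, blue lower and grey not called, and black bars are medians. The 8 histone genes lie above 0 with a median of 0.55, the 37 ribosomal protein genes have a median of -0.15, and most lists hold called members on both sides of 0.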

How the data were processed

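The deposited table held 1 linear intensity per probe set and array. The submitters' processing notes name MAS5, with no version in the sources used here. Each array had the same trimmed mean. Probe sets naming 1 gene (19064 of 22215, by the platform annotation, symbols updated with RefSeq GRCh38.p14) were kept when their mean log2(signal + 16) over 14 arrays passed the 40th percentile, a signal of 79.1. The probe set with the highest mean stood for its gene, which left 7720 genes. Fold changes are on the log2(signal + 16) scale and understate those of dim genes. The number of arrays limits the precision.

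limma 3.58.1 in R 4.3.3 (lmFit, eBayes with trend) fitted hairpin and treatment on the 6 hairpin arrays, and 6 groups on all 14 arrays for single treatments, the change with OHT and the departures from scrambled, which weight the treatments 1 and 2. Tests were two-sided and adjusted by Benjamini-Hochberg over 7720 genes. Probe sets of the target genes were also tested in a fit of all 22215. Scripts were tested on simulated data. Python 3.11.15 made the counts.

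Genes named were the 15 largest differences each way, the 5 largest changes with OHT each way and the 5 largest with opposite departures. The 15 were taken from called genes with the same sign at both treatments and no overlap between the hairpins with OHT. Up to 3 members of each list by adjusted p and the targets were added. Some further list members are named as examples chosen after their values were seen. The comparison, the members and the 36 gene lists were chosen with earlier results of these data known. The labels do not say whether the same replicate numbers of the hairpins with OHT are pairs. The correlation of their deviations was 0.05 over 2 numbers, too few to settle it. The labels name no batch.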

Additional observations from a re-analysis of the deposited data

Results flagged for a closer look

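Each group of 4 scrambled arrays was examined for a single array far from the other 3. The values examined were array medians, 3' to 5' signal ratios, target probe sets and genes ranked by difference, change with OHT or opposite departures. Genes named only from the lists were not examined. Of 98 such groups 5 had one. The limit used, Dixon's 95% critical value, is set so that chance passes it in about 1 in 20 groups. The arrays were the lowest scrambled array without OHT for RBX1 (2947) and for FOXO4 (64.1), and the lowest with OHT for IL10RB (406) and AXL (4524), together with the highest with OHT for VAMP3 (1435). On the hairpin arrays that stood apart in these genes, RBX1 was at most 656 with shFOXO33, IL10RB at most 257, AXL at most 1901 with shFOXO707 and VAMP3 at most 833. FOXO4 was below the filter on low signals.

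The test of the change of the hairpin difference with OHT called 172 genes in limma, 30 of them among the named genes. The values below are the difference with OHT minus that without, in log2 units, so a positive value of a gene that is higher with shFOXO707 is a widening. Among the genes most strongly higher with shFOXO707 the change was 1.30 for MAGEA8, 1.22 for SPARC, 1.06 for IGFBP5, 0.95 for PSAP, 0.89 for COX7A2L, 0.85 for LUM, 0.80 for RBX1 and 0.59 for IARS2, and -0.95 for AQP3. Among those most strongly lower it was -1.46 for AXL, -1.45 for PCLO, -1.12 for CAV1, -0.89 for CCND2, -0.83 for IDH1 and -0.62 for TMEM158, and 0.57 for SRM. AQP3 and SRM were thus the 2 of these 16 genes whose difference was smaller with OHT. The 16 were ranked on a difference that weights the treatments 1 without OHT and 2 with OHT. That ranking favours genes whose difference is larger with OHT. Of all 172 called genes, the difference was larger with OHT for 83 and larger without OHT for 89.

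Named for the change itself were SPHK1 (1.39), EGR4 (1.29) and CRYZ (1.19) in one direction and OSGIN1 (-1.96), MCF2L (-1.80), HBEGF (-1.67) and CCN3 (-1.66) in the other. From the gene lists, the change was 0.58 for BECN1, 0.42 for TFDP1 and 0.40 for UQCRB, and -0.65 for FZD6, -0.54 for TGFBR2, -0.48 for MAP1LC3B and -0.44 for KIF4A. Each of these rests on 1 array of each hairpin without OHT.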

How the results depend on the processing

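No named gene's called difference changed sign under any alternative, and 117 of 132 named genes kept their direction and call throughout. The genes given next are among those that did not, and the list is not complete. CALR, TPI1 and RPL14 lost their call without cross-matching probe sets, SLC7A6 with the mean over probe sets, PSMB8 without the first OHT array of either hairpin, IFIT5 under the 3 settings that leave only OHT arrays to compare, and MCF2L and EPCAM under 7 and 11 settings; FOXO1, E2F1, LIF and OLIG2 gained one under at least 1, and HBEGF and OSGIN1, not called, were negative with OHT arrays alone (-0.39 and -0.35).

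Removing probe sets that can match several transcripts (_x_at and _s_at) left fewer genes to test, and 2082 were called between the hairpins (1119 higher, 963 lower), 2026 with OHT (1096 and 930), 1353 without OHT (748 and 605), 91 in the change with OHT (42 and 49), 2273 in the departure of shFOXO707 (1403 and 870) and 2516 in that of shFOXO33 (1397 and 1119). As shares of the called genes the departing hairpin was then shFOXO707 only for 27.0%, shFOXO33 only for 34.0%, both on the same side for 11.7%, both on opposite sides for 22.9% and neither for 4.47%. Without a trend in the variance prior the change with OHT was called for 108 genes (53 and 55), and with the filter at the 60th percentile neither departure was called for 3.05% of the genes that differed between the hairpins; the cause was not tested. Median centring, quantile normalization, pseudocounts of 1 and 64 and the mean over probe sets kept these counts within 1.5 times. Of 864 counts of list members called, by list, direction and setting, 93 moved by more than that.

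Leaving out 1 array at a time, scrambled arrays included (the latter added after seeing the data), gave 97 to 198 genes for the change with OHT, 49 to 98 higher and 48 to 100 lower; the lowest of each came without the first shFOXO33 array with OHT. The hairpin difference stayed at 2810 to 3145 genes. A lone array left in a group was assumed to vary like the other groups. The change with OHT cannot be computed without the lone array of either hairpin without OHT, so those arrays were never left out for it. The replicate block, tried although it is not known whether the numbers pair the arrays, called 3359 genes between the hairpins (1685 higher, 1674 lower) and 3613 with OHT. Dim signals near the filter limit what can be seen for FOXO4, OSGIN1, ITGB3 and most interferon genes.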
